A study of Mus musculus with 40 samples.

Results

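Genomic imprinting leaves a gene active mainly on the copy inherited from 1 parent. The choice is carried by DNA methylation set in the egg or the sperm and kept through development, and imprinted genes lie in clusters that share a control region. As a group they are known for setting fetal and placental growth, with many paternally expressed members promoting growth and many maternally expressed members restraining it. The genes described here are 38 autosomal imprinted mouse genes outside the insulin-like growth factor axis, chosen by symbol and not by any measured value. Of the 38, 37 were listed among the 20593 genes of the table and 35 had a normalized read count of at least 10 in at least 5 libraries, the condition for testing. Magel2 was not listed, and Ascl2 and Nap1l5 were listed but stayed below that level. By textbook class, 17 of the 37 listed genes are expressed from the maternal copy and 19 from the paternal copy. The remaining gene, Gnas, makes different transcripts from each parent's copy. Many of these genes are known as imprinted only in placenta, brain or heart, such as Commd1 and Trappc9 in brain, so the class need not hold in fetal liver.

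RNA was sequenced from the livers of C57BL/6 mouse fetuses on gestational day 18.5, female (F) and male (M), 5 fetuses for each of 8 combinations of sex and maternal diet. The dams were fed for 13 weeks before mating and through pregnancy. WDF was a western diet with 45% of calories as fat and 10 mg/kg folic acid, WD the same fat with 2 mg/kg, CDF a control diet with 10% of calories as fat and 10 mg/kg folic acid, and CD the control fat with 2 mg/kg. The series presents the 45% fat diet as a model of gestational diabetes, and the question here is whether fat or folic acid in the dam's diet moved these genes in the fetal liver. All fetuses were of the same inbred strain with no stated mutation, so the 2 parental copies could not be told apart, and the files hold no values per allele. Imprinting itself was therefore not measured, only the total level of each gene.

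The label of liver held for 38 of the 40 libraries, where the albumin gene Alb ranged from 641907 to 1496610.5. In CDF female replicate 5 and CD female replicate 4 Alb was 5278 and 7708 while Sftpc, a surfactant gene of the lung, was at 67014 and 101239. These libraries were left out of every comparison, so CDF and CD females have 4 libraries each and the other groups 5. Normalized reads of the 38 libraries summed to between 15001967 and 27817171, with a median of 17006412. CDF female replicate 4 had the highest total and the highest summed erythroid markers, and CD male replicate 4 the highest Malat1, a long nuclear RNA. CD female replicate 5 and CDF female replicate 4 also carried Sftpc at 30176 and 24797. Sftpc stood at 5978 in WDF male replicate 2, 4012 in CD male replicate 5, 2008 in WD female replicate 4 and 1538 in CDF female replicate 2. These last libraries were kept throughout. Values without CDF female replicate 4, CD male replicate 4 and CD female replicate 5 are given beside some of the slopes and correlations only. Litters are not identified in the labels, and p-values here rest on the spread between single fetuses that may include littermates.

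Promoter windows of 300 bases, from 250 before to 50 after the annotated start, were taken from RefSeq on GRCm38.p6 for the genes whose levels are followed below. A window was found for 32 of the 38 genes, 46 windows in all. The windows shown belong to the divergent pair Peg3 and Usp29 and to 3 RNAs of the Dlk1-Meg3 cluster. Also shown are 1 of the Mest windows, which held 2 copies of the motif given next, and those of Kcnq1ot1 and Slc22a3. The latter 2 genes had small p-values in a diet comparison. Capitals mark TGCCGC or its complement GCGGCA, the 6 letters that the imprint-keeping protein ZFP57 is known to bind when their CG is methylated. Each sequence is written 5′ to 3′ on the strand of the gene.
Peg3, chr7:6730370-6730669, minus strand: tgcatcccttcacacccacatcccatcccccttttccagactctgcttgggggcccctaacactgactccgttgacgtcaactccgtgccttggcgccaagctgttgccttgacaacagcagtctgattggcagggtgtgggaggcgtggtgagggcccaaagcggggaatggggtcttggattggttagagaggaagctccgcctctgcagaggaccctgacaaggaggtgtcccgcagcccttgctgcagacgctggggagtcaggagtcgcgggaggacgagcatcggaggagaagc
Usp29, chr7:6730333-6730632, plus strand: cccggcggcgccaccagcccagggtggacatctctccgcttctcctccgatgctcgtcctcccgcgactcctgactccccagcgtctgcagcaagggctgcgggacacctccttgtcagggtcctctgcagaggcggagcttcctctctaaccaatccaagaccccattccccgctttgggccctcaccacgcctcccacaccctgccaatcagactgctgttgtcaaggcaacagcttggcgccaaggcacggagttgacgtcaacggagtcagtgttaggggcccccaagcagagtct
Meg3, chr12:109540746-109541045, plus strand: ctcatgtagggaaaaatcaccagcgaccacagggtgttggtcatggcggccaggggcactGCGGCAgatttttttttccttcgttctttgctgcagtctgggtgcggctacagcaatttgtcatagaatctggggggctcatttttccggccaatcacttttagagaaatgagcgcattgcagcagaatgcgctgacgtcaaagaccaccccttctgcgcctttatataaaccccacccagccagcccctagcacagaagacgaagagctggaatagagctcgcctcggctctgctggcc
Rian, chr12:109603695-109603994, plus strand: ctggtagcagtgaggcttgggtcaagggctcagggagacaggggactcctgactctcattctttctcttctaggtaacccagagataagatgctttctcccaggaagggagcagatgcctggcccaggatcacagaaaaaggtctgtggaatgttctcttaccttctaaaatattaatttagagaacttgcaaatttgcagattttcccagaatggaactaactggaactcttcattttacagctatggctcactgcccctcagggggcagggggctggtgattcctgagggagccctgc
Mirg, chr12:109734731-109735030, plus strand: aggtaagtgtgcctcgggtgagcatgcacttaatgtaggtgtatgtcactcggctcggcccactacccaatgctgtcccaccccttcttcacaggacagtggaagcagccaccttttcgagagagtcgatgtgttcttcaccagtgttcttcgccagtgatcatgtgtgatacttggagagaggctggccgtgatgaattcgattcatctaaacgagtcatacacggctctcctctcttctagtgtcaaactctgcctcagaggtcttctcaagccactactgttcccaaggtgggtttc
Mest, chr6:30737800-30738099, plus strand: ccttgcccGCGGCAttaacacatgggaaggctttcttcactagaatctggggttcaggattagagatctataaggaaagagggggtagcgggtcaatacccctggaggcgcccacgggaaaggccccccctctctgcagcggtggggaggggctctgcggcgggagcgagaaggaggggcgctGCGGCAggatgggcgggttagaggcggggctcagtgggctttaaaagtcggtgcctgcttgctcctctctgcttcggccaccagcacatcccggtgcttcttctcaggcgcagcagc
Kcnq1ot1, chr7:143296498-143296797, minus strand: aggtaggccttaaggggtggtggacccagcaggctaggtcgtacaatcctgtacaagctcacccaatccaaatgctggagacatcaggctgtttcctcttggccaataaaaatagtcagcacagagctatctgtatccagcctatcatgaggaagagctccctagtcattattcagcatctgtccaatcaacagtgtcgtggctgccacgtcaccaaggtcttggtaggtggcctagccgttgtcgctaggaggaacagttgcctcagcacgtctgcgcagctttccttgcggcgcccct
Slc22a3, chr17:12507655-12507954, minus strand: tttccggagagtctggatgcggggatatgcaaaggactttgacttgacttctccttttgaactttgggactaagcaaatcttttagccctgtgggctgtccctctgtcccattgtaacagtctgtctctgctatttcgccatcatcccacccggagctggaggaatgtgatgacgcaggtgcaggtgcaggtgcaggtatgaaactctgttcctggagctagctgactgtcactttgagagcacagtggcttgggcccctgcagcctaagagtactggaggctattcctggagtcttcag
The Peg3 and Usp29 windows share 263 bases, read on opposite strands, because their starts lie 164 bases apart, at 6730419 and 6730583 on chromosome 7. TGCCGC, searched on both strands, was present in 11 of the 46 windows (23.9%), from 10 genes. Over the windows of all listed RefSeq genes it was present in 3813 of 32851 (11.6%). The Mest windows starting at 30737800 and 30737803 overlap and hold the same 2 matches, and both were counted. No other motif was searched. Windows of the imprinted genes held a median of 13.0 CG pairs, against 7.0 in all windows. Among the windows printed, that of Mest held 2 matches and 17 CG pairs, that of Meg3 1 match and 13 CG pairs, and that of Rian 0 matches and 0 CG pairs. Another Mest window, with 8 CG pairs, and another Meg3 window, with 1, held 0 matches. A match is a description of the letters in the window, and no methylation was measured.

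Grb10, Dlk1, Gnas and Cdkn1c had the highest counts of the imprinted genes in the fetal liver. Grb10 (chr11:11930508-12038683, minus strand), which encodes an adaptor that restrains insulin receptor signalling, averaged 17692 ± 2641 normalized reads over the 38 libraries (SD, n = 38). Dlk1 (chr12:109452823-109463336, plus strand), a membrane protein found on fetal hepatoblasts, averaged 6664 ± 2193. Gnas (chr2:174284320-174346744, plus strand), which encodes the stimulatory G protein alpha subunit among other products, averaged 6376 ± 743. Cdkn1c (chr7:143458339-143461050, minus strand), an inhibitor of the cell cycle kinases, averaged 6305 ± 1847. Per kilobase of annotated exon the order changed, and Cdkn1c stood first at 3092 reads per kb. Grb10 followed with 1947, Dlk1 with 1178, Mest with 765, Cd81 with 646 and Gnas with 570.0 reads per kb. Of the neighbours that belong to the growth factor axis, mean H19 counts of the 8 groups lay between 180224 and 210036, mean Igf2 between 43498 and 60125, and mean Igf2r between 1758 and 2367.

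In the Kcnq1 cluster of chromosome 7, Cdkn1c was followed by Cd81, a tetraspanin, at 1860.0 ± 221 reads. Tssc4 averaged 465 ± 212, and Kcnq1ot1 (chr7:143203458-143296549, minus strand), the paternal antisense RNA that silences the cluster, 408 ± 226. Slc22a18, a transporter, averaged 273 ± 100.3, and Phlda2, known for limiting placental growth, 126 ± 37.9. Ascl2, a transcription factor of the trophoblast, reached 10 reads in 1 library and was at 0 in 4. In the Igf2r cluster of chromosome 17, Slc22a3 (chr17:12418960-12507704, minus strand), a transporter of monoamines and organic cations, averaged 63.2 ± 46.6. Airn, the paternal antisense RNA of that cluster, averaged 20.8 ± 7.90 reads.

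In the Dlk1-Meg3 cluster of chromosome 12, the maternal noncoding RNA Rian, host of small nucleolar RNAs, averaged 3320.5 ± 705 reads. Meg3 (chr12:109541001-109571726, plus strand), the long RNA that opens that stretch, averaged 2892 ± 1922, and Mirg, a host of microRNAs, 87.9 ± 42.0. Rtl1, a gene derived from a retrotransposon, averaged 11.7 ± 5.78 and reached 10 reads in 21 of the 38 libraries. The libraries were made from polyadenylated RNA, so products without a poly(A) tail were not sampled. In the Peg3 cluster of chromosome 7, Peg3 (chr7:6703892-6730431, minus strand), a zinc finger protein, averaged 3164 ± 856, its neighbour Zim1 247 ± 114, and Usp29, a ubiquitin peptidase gene, 57.8 ± 19.6.

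On chromosome 6, Mest (chr6:30723547-30748465, plus strand), a hydrolase-like protein of growing mesodermal tissue, averaged 3019 ± 376 reads. In the Peg10 cluster, Sgce, which encodes epsilon-sarcoglycan, averaged 443 ± 46.1, Peg10, another retrotransposon-derived gene, 401 ± 134, Ppp1r9a, an actin-binding scaffold, 237 ± 53.7 and Asb4 66.4 ± 15.3. Nap1l5 had a median of 2.32 reads and was at 0 in 3 libraries, yet stood at 68.7 in WDF female replicate 1. The 5 heart markers summed to 2169.5 in that library and to between 42.8 and 77.9 in the other WDF females, and the part of heart tissue in this value was not tested. In the Snrpn cluster of chromosome 7, Ube3a (chr7:59228750-59311536, plus strand), a ubiquitin ligase whose paternal copy is silent in neurons, averaged 1568 ± 831. Ndn and Snrpn averaged 121 ± 39.2 and 72.0 ± 18.2.

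Among genes that stand alone or in pairs, Plagl1 (chr10:13060504-13131694, plus strand), a zinc finger regulator of other imprinted genes in the mouse, averaged 1105 ± 341 reads. Commd1 (chr11:22896136-22982382, minus strand), known for copper handling, averaged 725 ± 215, and Zrsr1, a gene inside it on the other strand, 237 ± 52.9. Ddc (chr11:11814101-11898144, minus strand), the decarboxylase that makes dopamine and serotonin, averaged 416 ± 85.8. Inpp5f (chr7:128611328-128696425, plus strand) averaged 240.2 ± 45.1, Trappc9 (chr15:72589620-73061204, minus strand) 227 ± 31.4, and Nnat (chr2:157560078-157562522, plus strand), a small membrane protein, 149 ± 118. Impact (chr18:12955852-12992950, plus strand), a brake on the amino acid sensor kinase Gcn2, averaged 147 ± 34.5, and Mcts2 (chr2:152687035-152687946, plus strand), a retrocopy, 73.1 ± 18.01. Coordinates are those of GENCODE M21 on GRCm38. Several of these genes share bases with a neighbour: Kcnq1ot1 with Kcnq1, Airn with Igf2r, Slc22a3 with Plg, Nnat with Blcap, Zrsr1 with Commd1, Ube3a with Snhg14, Mest with Copg2, Gnas with Nespas and Nap1l5 with Herc3 on opposite strands, and Snrpn with Snurf, Mcts2 with H13 and Trappc9 with Peg13 on the same strand. The libraries were directional, but the strand setting of the counting is not given in the sources used here, so the levels of these pairs are uncertain.

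**Figure D1:**
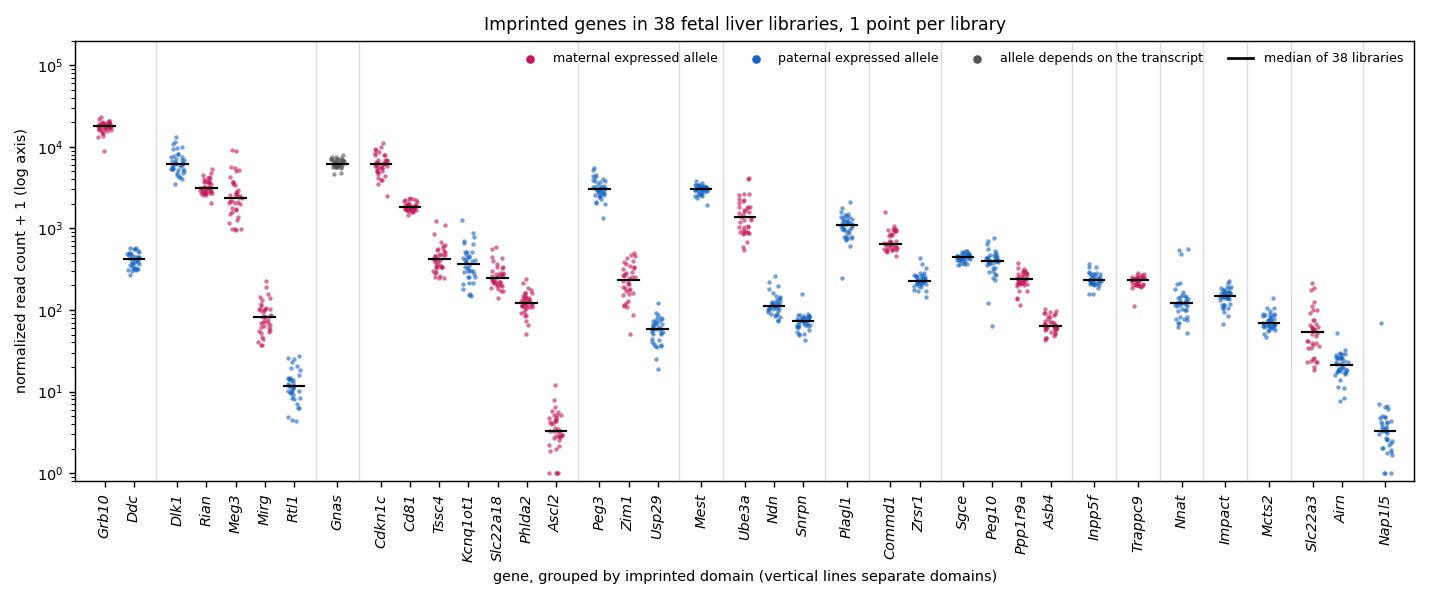
Normalized read count plus 1 on a log axis for the 37 listed imprinted genes, grouped by cluster. Each point is 1 of 38 libraries, the bar is the median, and colour gives the expressed copy by textbook class. Grb10 sits highest at a mean of 17692, and Ascl2 and Nap1l5 lie near the bottom with medians of 2.29 and 2.32.

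Over the 8 groups, the highest group mean was less than 1.5 times the lowest for 19 of the 35 genes. The median of this ratio was 1.45, and it reached 3.00 for Slc22a3, 2.74 for Nnat, 2.38 for Kcnq1ot1 and 2.34 for Ube3a. The ratio was not computed over all genes. The variation coefficient over libraries was under 20% for 7 genes, lowest for Sgce at 10.4%, Gnas at 11.6%, Cd81 at 11.9% and Mest at 12.5%. It was highest for Nnat at 79.2%, Slc22a3 at 73.7%, Meg3 at 66.5%, Kcnq1ot1 at 55.4% and Ube3a at 53.0%. Single libraries made part of that spread. CDF female replicate 4 gave the lowest value of all 38 libraries for 11 of the 35 genes and the highest for 6. Grb10 stood at 8845 in that library and at 13023 or above in the other 37, and Plagl1 at 243 there and at 604 or above elsewhere.

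No imprinted gene passed an adjusted p of 0.05 in any of the 15 comparisons of diet or sex, tested with limma on log2(value + 1) and adjusted with Benjamini-Hochberg over 15377 genes. The share of all genes that passed was 0.0455% for the western diet averaged over 4 strata, 0.0585% for female against male averaged over 4 diets, and 0% in each other comparison. At an unadjusted p under 0.05, the count of imprinted genes was 3 of 35 for WDF against WD males, where 8.81% of all genes lay under that limit. It was 0 of 35 for WDF against WD females (1.44% of all genes), 3 for CDF against CD males (3.49%) and 2 for CDF against CD females (7.78%). For fat it was 0 for WD against CD males (6.65%), 1 for WD against CD females (6.57%), 3 for WDF against CDF males (6.9%) and 1 for WDF against CDF females (8.14%). It was 1 for the western diet (7.5%), 1 for folic acid (2.33%) and 1 for sex (3.1%), each averaged over strata. For the differences between effects it was 4 for folic acid by fat in males (12.3%), 2 in females (12.9%), 0 for folic acid by sex (1.07%) and 0 for fat by sex (1.18%). All of these counts came from 10 genes, named here after their values were seen: Slc22a3, Kcnq1ot1, Ddc, Nnat, Rian, Usp29, Ube3a, Zrsr1, Tssc4 and Asb4.

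The averaged effects were small. The log2 difference of the western diet over the control diet had a median of 0.02 over the 35 genes and 0.00 over all genes, with 24 of the 35 above 0. Its 95% intervals lay within 0.5 on the log2 scale in either direction for 26 genes and within 1 for all 35. The log2 difference of 10 over 2 mg/kg folic acid had a median of 0.03, against 0.00 over all genes, with 21 above 0. Its intervals lay within 0.5 for 25 genes and within 1 for 34, the exception being Slc22a3, whose interval reached 1.16. By class, the median folic acid difference was 0.02 for the 16 maternal genes and 0.01 for the 18 paternal genes, and the median western diet difference 0.03 and 0.04. The log2 difference of females over males had a median of -0.05, against 0.00 over all genes, with 13 of 35 above 0 and intervals within 0.5 for 25 genes.

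**Figure D2:**
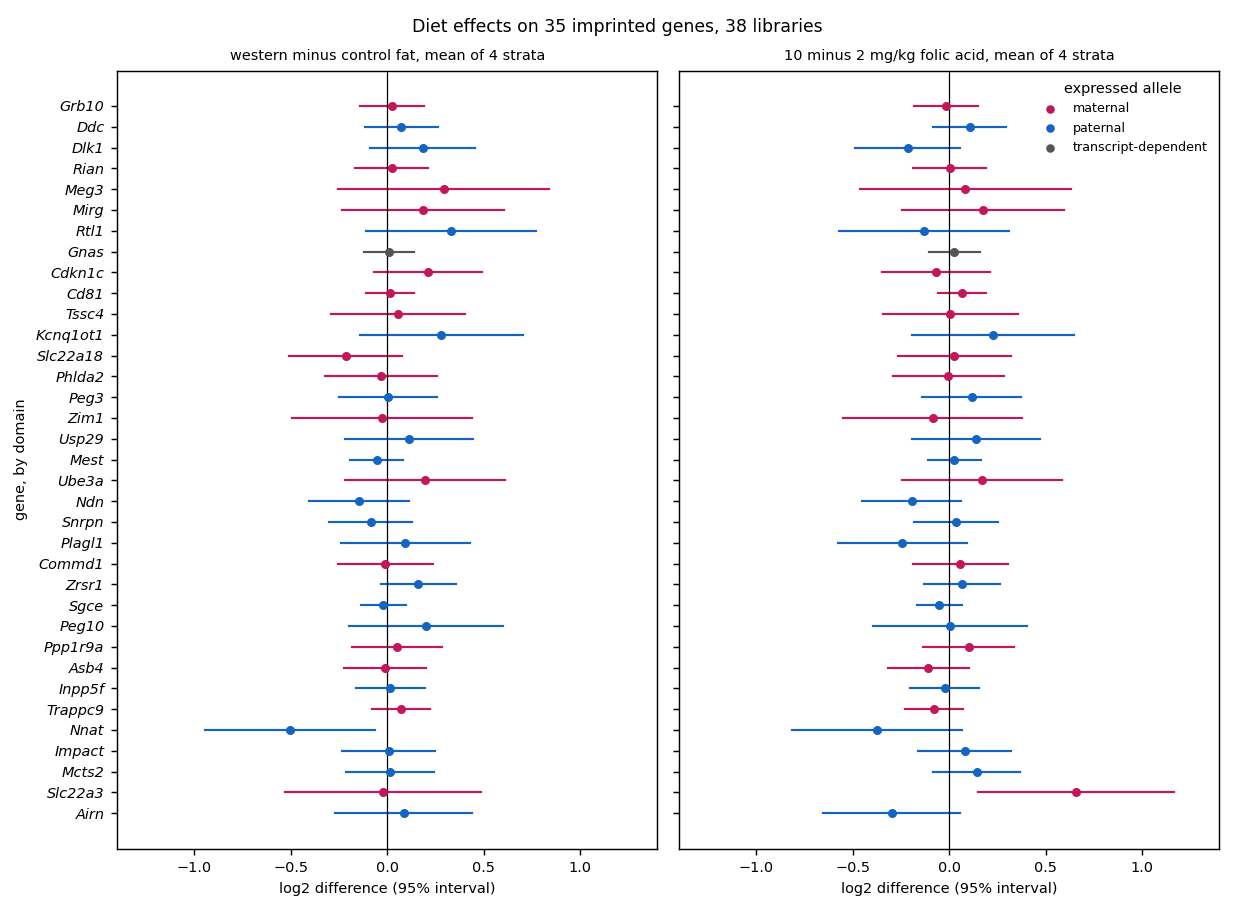
Log2 difference with its 95% interval for 35 imprinted genes, the western over the control diet on the left and 10 over 2 mg/kg folic acid on the right, each averaged over 4 strata of 38 libraries. Colour gives the expressed copy by textbook class. The intervals of all but Nnat on the left and Slc22a3 on the right cross 0, and neither of these passed the adjusted threshold.

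The smallest p-value among the imprinted genes was that of Slc22a3 in WDF against WD males. Slc22a3 stood at 57.7, 184.5, 99.8, 109.7 and 99.2 in WDF males, against 21.99, 22.2, 61.4, 38.2 and 55.3 in WD males. The lowest WDF value lay below the highest WD value, and the other 4 WDF values lay above all 5 WD values. The highest, WDF male replicate 2, had lung markers summing to 8557, against at most 373 in the other WDF males. The part of lung tissue in its Slc22a3 value was not tested. The log2 difference was 1.47 (SE 0.48), with an unadjusted p of 0.00439 in limma and an adjusted p of 0.455. In the other folic acid comparisons the log2 difference of Slc22a3 was 0.36 for WDF over WD females (95% interval -0.62 to 1.35), -0.49 for CDF over CD males (-1.47 to 0.49) and 1.28 for CDF over CD females (0.18 to 2.38). In males, the folic acid difference on the western diet exceeded that on the control diet by 1.96 (SE 0.68, limma unadjusted p 0.00697, adjusted p 0.340). CD male replicate 4 stood at 216 reads, among CD males otherwise between 33.3 and 61.2, and without it the difference was 1.51.

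Ddc stood at 502, 567, 456, 520.2 and 500.5 in WDF males, against 485, 440, 322, 313 and 264 in WD males. All 5 WDF values lay above 4 of the 5 WD values, and WD male replicate 1 lay within the WDF range. The log2 difference was 0.51 (SE 0.18, limma unadjusted p 0.00738, adjusted p 0.463). Ddc is known as imprinted in the mouse heart, and Slc22a3, like Ascl2, Cd81 and Tssc4, in the mouse placenta, and the deposited values do not separate the parental copies. Kcnq1ot1, named after its values were seen, stood at 453, 654, 779.5, 886 and 650.3 in WDF males, against 323, 518, 428, 249.7 and 208 in WD males. Only WD male replicate 2 lay above the lowest WDF value, and the log2 difference was 1.03 (SE 0.40, limma unadjusted p 0.0148, adjusted p 0.494). All 5 WDF males also lay above all 5 CDF males, in which Kcnq1ot1 ranged from 276 to 430.2. Groups failed to overlap in that comparison for 2.08% of all genes. The only other such gene was Inpp5f, a phosphoinositide phosphatase, which ranged from 235 to 339 in WDF females and from 182 to 233 in CDF females, with a log2 difference of 0.31 (95% interval -0.06 to 0.68), where groups failed to overlap for 0.735% of all genes. In each of the other 6 comparisons between 2 diets, 0 of the 35 imprinted genes had groups that did not overlap. The share of all genes was 2.52% for WDF against WD males, 0.306% for WDF against WD females, 0.722% for CDF against CD males and 2.75% for CDF against CD females. It was 1.5% for WD against CD males and 2.56% for WD against CD females.

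The long nuclear RNAs moved with these values. Malat1 stood at 5295, 15282, 15686, 12746 and 14825 in WDF males, against 5089.6, 6537, 7399.65, 3715 and 3116 in WD males. Neat1 ranged from 1293 to 3089 in WDF males and from 642 to 1428 in WD males. The WDF male with the lowest Malat1, replicate 1, was also the lowest of its group for Slc22a3 and Kcnq1ot1. With the mean log2 level of Malat1 and Neat1 added to the model after the data were seen, the WDF over WD difference in males was 0.70 for Slc22a3 (limma unadjusted p 0.1498) and 0.27 for Ddc (unadjusted p 0.1505). That of Kcnq1ot1 became -0.07 (unadjusted p 0.747). Which of these measures follows which was not tested.

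**Figure D3:**
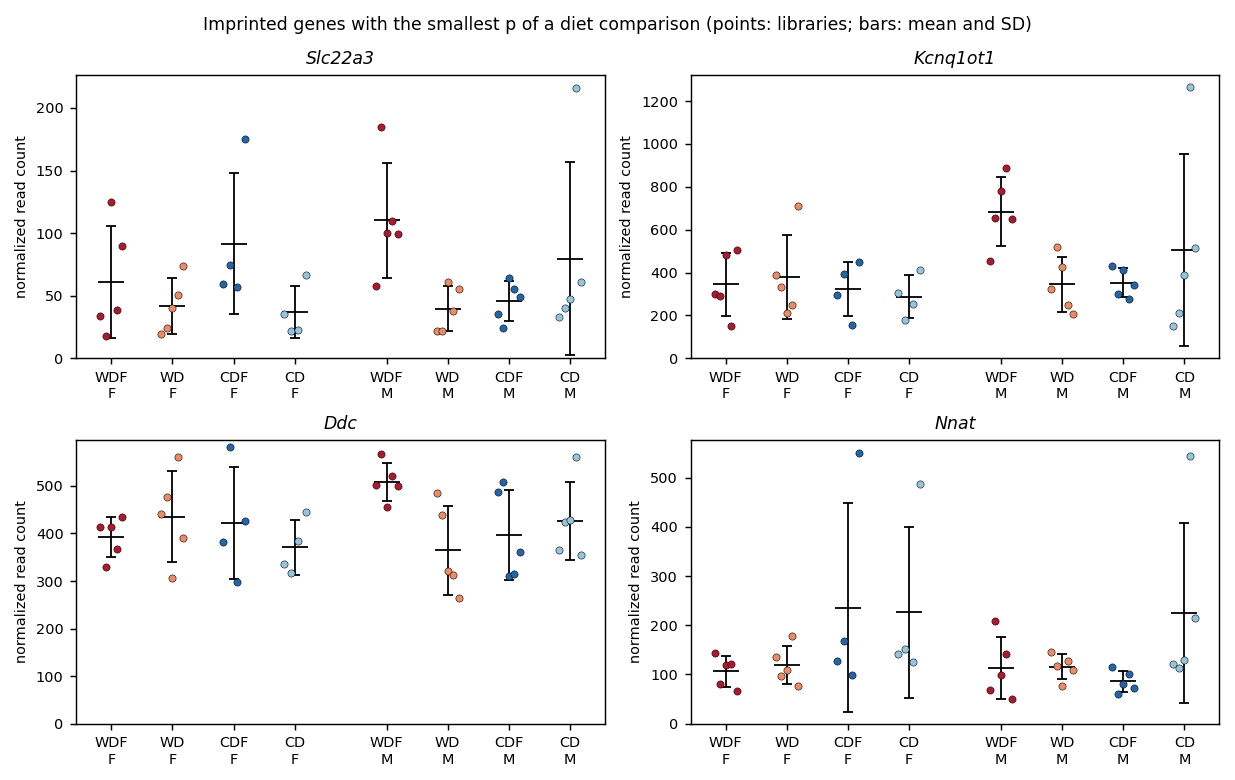
Normalized read counts of Slc22a3, Kcnq1ot1, Ddc and Nnat by maternal diet, females on the left of each panel and males on the right. Points are libraries and bars are the mean and SD of 5 libraries, or 4 for CDF and CD females. Kcnq1ot1 averaged 684.5 in WDF males and 345 in WD males, while single CD males and CDF females stand far above their groups.

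The authors' deposited tables, made by the submitters from these libraries for 4 folic acid comparisons, called 2 of these genes. In the authors' deposited table for WDF against WD males, Slc22a3 had a log2 fold change of 1.26 with an adjusted p of 0.00898, and Kcnq1ot1 a log2 fold change of 0.83 with an adjusted p of 0.0181. That table held an adjusted p for 34 of the 37 genes, and 1.48% of all its genes with an adjusted p were called. At an unadjusted p under 0.05 it held 6 of the 37 genes, and 11.3% of all genes. The authors' deposited tables for the other 3 comparisons called 0 of the imprinted genes, beside 0.0216% of all genes for CDF against CD females, 0.0437% for CDF against CD males and 0% for WDF against WD females. At an unadjusted p under 0.05 the authors' deposited tables held 3 of the 37 genes for CDF against CD females (5.74% of all genes), 4 for CDF against CD males (4.35%) and 1 for WDF against WD females (2.48%). The call of Slc22a3 and Kcnq1ot1 therefore differs between the deposited test and limma. In limma the spread was estimated over 38 libraries in 8 groups. The deposited mean signal of Slc22a3 was 67.6 for WDF against WD males and 52.6 for WDF against WD females. The 2 tests thus did not draw on 1 common set of libraries, and the part of this in the differing call was not tested. The deposited fold changes appear shrunken towards 0, and their sizes cannot be set directly against the limma differences. Rian, for 1, had a deposited log2 fold change of 6.3e-06 for CDF against CD males at an unadjusted p of 0.00673 in the deposited test.

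Nnat, named after its values were seen, stood at 115, 60.9, 80.7, 100.8 and 73.3 in CDF males, against 121, 113, 129, 544 and 216 in CD males. The groups overlapped only at CDF male replicate 1, and the log2 difference was -1.12 (SE 0.42, limma unadjusted p 0.0120, adjusted p 0.908). Without CD male replicate 4 it was -0.73. Averaged over 4 strata, Nnat had a log2 difference of -0.50 for the western over the control diet (SE 0.22, limma unadjusted p 0.0260, adjusted p 0.567). Its 3 highest libraries were CDF female replicate 4, CD male replicate 4 and CD female replicate 5, at 551, 544 and 487. With 36 libraries, leaving out CDF female replicate 4 and CD female replicate 5, that difference was -0.26. Markers of other tissues were raised in these libraries. The 5 heart genes summed to 438 in CDF female replicate 4, 405 in CD male replicate 4 and 10482 in CD female replicate 5, against at most 114, 112 and 95.9 in the other libraries of each group. The listed skeletal muscle genes summed to 465, 626 and 3003 there, against at most 287, 230 and 177. The summed level of the 8 listed lung genes was 28875 in CDF female replicate 4 and 39683 in CD female replicate 5, with 0 of the 8 genes at 0, but 185 in CD male replicate 4, with 3 of the 8 at 0. It ranged from 137 to 184 in CDF males and from 174 to 5872 in CD males. Across the 38 libraries, with group means kept, Nnat rose by 0.22 log2 units and Ndn by 0.14 for each log2 unit of the lung marker score (limma adjusted p 0.000798 and 2.51e-05), where 17.1% of all genes had a slope past the threshold. Without those 3 libraries the slopes were 0.35 and 0.26 (adjusted p 0.0144 and 0.0121), where 2.79% of all genes passed. Without them Sftpc was too low to stay in the lung score, so these slopes rest on another set of markers. They do not show whether the slopes on the first lung score hold without those libraries. The part of lung, heart or muscle tissue in the Nnat differences was not tested further. In these bulk samples, a change in the number of cells of a type and a change of RNA per cell cannot be told apart.

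Meg3, Kcnq1ot1 and Ube3a followed the nuclear RNAs closely from library to library. With the mean log2 level of Malat1 and Neat1 on the x axis, Pearson's r over 38 libraries was 0.854 for Meg3, 0.908 for Kcnq1ot1 and 0.740 for Ube3a. Spearman's rho was 0.856, 0.885 and 0.774, and each permutation p was 1e-05, the smallest that 100000 resamples can give. Without CD male replicate 4 and WDF male replicate 5, the libraries farthest from the median score, r was 0.836, 0.893 and 0.722. In limma, with group means kept, Meg3 rose by 1.26 log2 units (SE 0.11), Kcnq1ot1 by 0.96 (SE 0.09) and Ube3a by 0.83 (SE 0.12) for each log2 unit of the score, with adjusted p of 2.92e-09, 8.71e-09 and 5.01e-06. Mirg rose by 0.77 (adjusted p 4.23e-05), Slc22a3 by 0.68 (0.00517), Tssc4 by 0.56 (0.000432), Commd1 by 0.35 (0.00246) and Ddc by 0.21 (0.0218). Without CD male replicate 4, CDF female replicate 4 and CD female replicate 5, the Ddc slope was 0.18 and did not pass (adjusted p 0.0881). Zim1 fell by 0.66 (adjusted p 0.00274) and Plagl1 by 0.37 (0.0223).

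In all, 10 of the 35 genes had a positive and 5 a negative slope on this score past an adjusted p of 0.05, a share of 42.9%, against 46.4% of all 15377 genes. A slope past the threshold was thus about as frequent among all genes. Neighbours in 1 cluster differed in slope. Meg3 ranged from 957 to 9090 reads over the 38 libraries and Rian from 2042 to 5401. The Rian slope was 0.09 (SE 0.08, limma adjusted p 0.366), and that of Grb10 was -0.10 (SE 0.07, adjusted p 0.237). Without the same 3 libraries the Grb10 slope was -0.15 and passed (adjusted p 0.0403), and that of Rian was 0.12 (adjusted p 0.245). Over those 35 libraries 9 genes had a positive and 5 a negative slope past the threshold, against 45.3% of all genes, and the slopes of Meg3, Kcnq1ot1 and Ube3a were 1.21, 0.88 and 0.80.

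**Figure D4:**
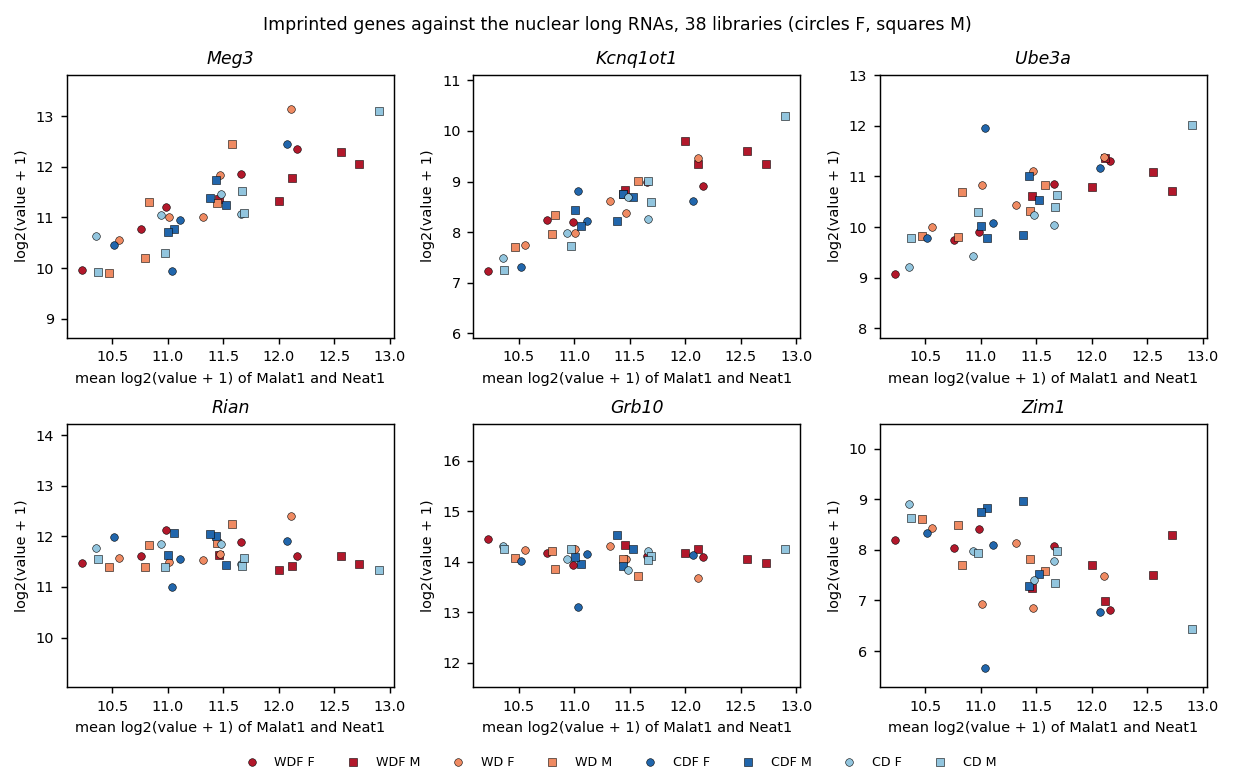
Log2(value + 1) of 6 imprinted genes against the mean log2(value + 1) of Malat1 and Neat1 in 38 libraries. Colour gives the diet, circles are females and squares males, and every y axis spans the same number of log2 units. Meg3, Kcnq1ot1 and Ube3a climb with the score (r 0.854, 0.908 and 0.740), Zim1 descends (r -0.506), and the slopes of Rian and Grb10 are small at 0.09 and -0.10, that of Grb10 being -0.15 and past the threshold without 3 libraries.

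The cell type scores gave other slopes. On the mesenchymal score, drawn from 10 listed genes, 5 imprinted genes rose and 11 fell past the threshold (45.7%, against 50.9% of all genes). Plagl1 rose by 1.41 log2 units (SE 0.19, limma adjusted p 3.13e-06) and Zim1 by 1.44 (adjusted p 0.000942) for each unit. On the erythroid score 11 rose and 2 fell (37.1%, against 43.6%). Without CD male replicate 4, CDF female replicate 4 and CD female replicate 5, 3 rose and 11 fell on the mesenchymal score (40%, against 44.7%). Over those 35 libraries 12 rose and 3 fell on the erythroid score (42.9%, against 48%). The genes that followed the nuclear RNAs also moved with these scores. Meg3, Kcnq1ot1 and Ube3a rose by 2.27, 1.39 and 1.55 per unit of the erythroid score (limma adjusted p 0.000233, 0.00416 and 0.00109) and fell on the mesenchymal score, with slopes of -1.41, -1.09 and -1.48 (adjusted p 0.00884, 0.00701 and 0.000114). The part of cell makeup in their nuclear slopes was not tested. On the endothelial score 6 rose and 10 fell (45.7%, against 47.6%), and without CD male replicate 4, CDF female replicate 4 and CD female replicate 5 the counts were 3 and 8 (31.4%, against 26.2% of all genes). On the hepatocyte score 1 rose and 4 fell (14.3%, against 8.01%), and without those libraries 1 rose and 1 fell (5.71%, against 3.13%). Grb10 was the gene that rose on the hepatocyte score, by 0.91 per unit with 38 libraries (adjusted p 0.0386) and 1.11 with 35 (adjusted p 0.00274).

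Pairs of imprinted genes were compared, 9 within a cluster and 2 across clusters, with permutation tests over 38 libraries adjusted with Benjamini-Hochberg over the pairs. The pair of Ndn and Magel2 could not be compared. Pairs of other genes were not tested, so how often any 2 genes pass in these libraries is not known. A slope on the Malat1 and Neat1 score passed for 46.4% of all genes. Meg3 and Mirg had the highest r at 0.887 (rho 0.877, adjusted p 5.5e-05), and 0.844 without the 2 libraries farthest from the median of Meg3. Peg3 and Usp29, whose starts are 164 bases apart, had r of 0.726 (rho 0.649, adjusted p 5.5e-05), and 0.626 without the 2 farthest. In CDF female replicate 4 both were lowest, Peg3 at 1344 and Usp29 at 17.8, and over 35 libraries without it, CD male replicate 4 and CD female replicate 5 r was 0.613 (adjusted p 0.000715). Dlk1 and Meg3, expressed from opposite parental copies, had r of 0.461 (rho 0.438, adjusted p 0.00799), and 0.401 without the 2 farthest. Meg3 and Rian had r of 0.388 (rho 0.325, adjusted p 0.0283), and 0.396 without the 2 farthest, and the adjusted p of rho was 0.0742.

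With group means and the Malat1 and Neat1 score taken out, a step chosen after the data were seen, r was 0.781 for Meg3 and Mirg, 0.761 for Meg3 and Rian and 0.716 for Dlk1 and Meg3. Peg3 and Usp29 had r of 0.692. Each of these 4 pairs had an adjusted permutation p of 2.75e-05. Zrsr1 and Commd1 (r -0.514) and Cdkn1c and Phlda2 (r 0.340) also passed with this step and had not over the 38 libraries before it. For Meg3 and Rian, r was 0.516 with only the group means taken out.

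Plagl1 was paired with Peg3 and Cdkn1c, on other chromosomes or in other clusters, because Plagl1 is known in mice as a regulator within a network of imprinted genes. Plagl1 and Peg3 had r of 0.626 (rho 0.621, adjusted permutation p 0.000257), which was 0.441 without the 2 libraries farthest from the median of Plagl1. Over 35 libraries, without CD male replicate 4, CDF female replicate 4 and CD female replicate 5, it was 0.464 (adjusted permutation p 0.01485). Plagl1 and Cdkn1c had r of -0.485 (rho -0.399, adjusted p 0.00756), and -0.337 without the 2 farthest, with an adjusted p of 0.0815, so the call was lost without those libraries. It was kept over 35 libraries (r -0.473, adjusted p 0.0148), with group means out (r -0.523, adjusted p 0.00176) and with the nuclear score out as well (r -0.425, adjusted p 0.0148). All 3 genes moved with the endothelial score, by 2.34 log2 units per unit for Plagl1, 1.65 for Peg3 and -1.66 for Cdkn1c (limma adjusted p 0.000389, 0.00104 and 0.00270), and the part of cell makeup in the pairs was not tested. Pairs within the Kcnq1 cluster did not pass over the 38 libraries, and r was 0.331 for Cdkn1c and Phlda2, 0.321 for Cdkn1c and Kcnq1ot1 and 0.283 for Cdkn1c and Slc22a18 (adjusted permutation p 0.0669, 0.0689 and 0.0950). With group means taken out the first of these had r of 0.422 and the second 0.412, and both passed (adjusted p 0.0137 each). With the nuclear score out as well, r was 0.340 for Cdkn1c and Phlda2 (adjusted p 0.0495) and 0.148 for Cdkn1c and Kcnq1ot1 (adjusted p 0.413). Without the 2 libraries farthest from the median of Cdkn1c, r was 0.0563 for Cdkn1c and Phlda2. Peg10 and Sgce, which start back to back, had r of 0.206 (adjusted p 0.214), with -0.146 without the 2 farthest libraries. Zrsr1 and Commd1, which overlap on opposite strands, had r of -0.285 (adjusted p 0.0950). It was -0.514 with group means and the nuclear score out, which passed (adjusted p 0.00200), and -0.0219 over 35 libraries.

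**Figure D5:**
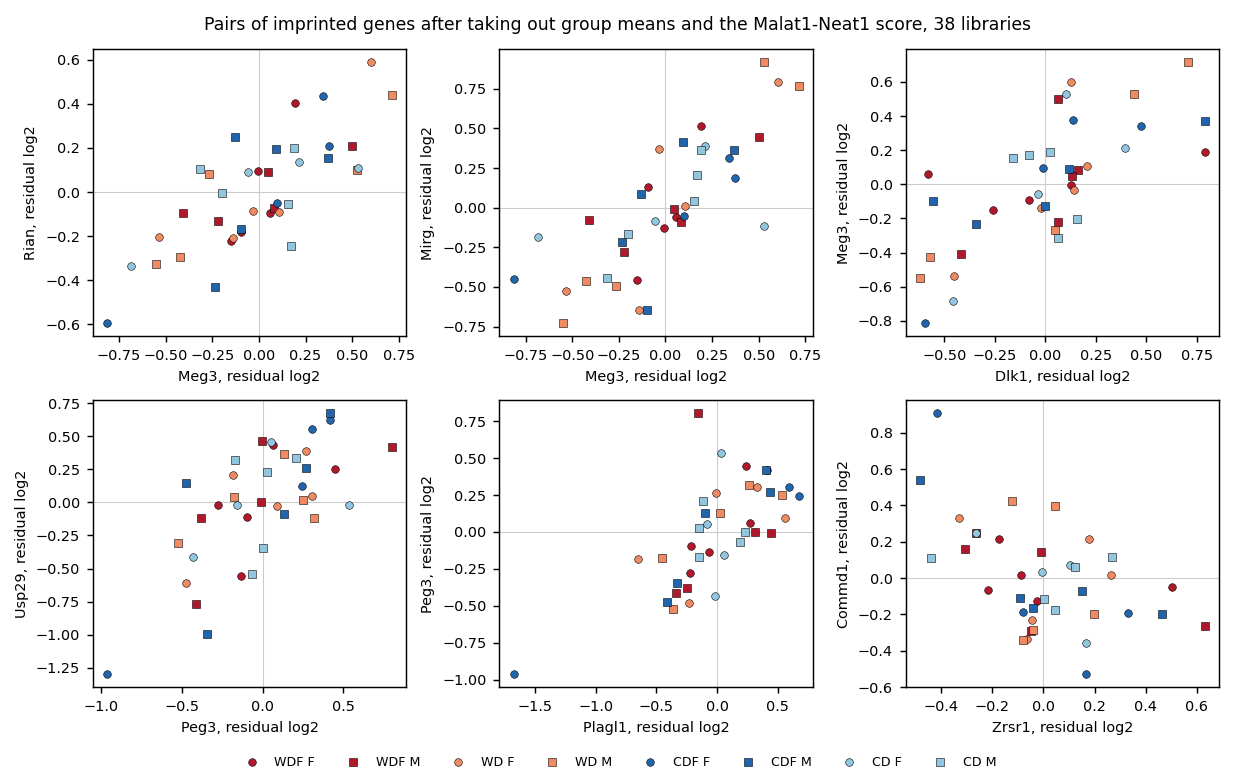
Residual log2 levels of 6 pairs of imprinted genes in 38 libraries after group means and the Malat1 and Neat1 score were taken out. Colour gives the diet, circles are females and squares males. Meg3 rises with Rian, Mirg and Dlk1 (r 0.761, 0.781 and 0.716) and Peg3 with Usp29 (r 0.692), while Zrsr1 falls with Commd1 (r -0.514).

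Genes of the wider imprinting system were counted beside these. Of 40 other genes described as imprinted in some mouse tissue, 30 were tested, and 0 passed an adjusted p of 0.05 in limma in any of the 15 comparisons. Of 18 factors that set, keep or erase imprinted methylation, among them the maintenance methyltransferase gene Dnmt1 and the zinc finger gene Zfp57, 16 were tested and 0 passed. For the western diet the median log2 difference was 0.09 over the 16 factors, with 14 above 0 and 2 (both higher) under an unadjusted p of 0.05, against a median of 0.00 and a share of 7.5% over all genes. For folic acid it was 0.03 over these factors, with 10 above 0 and 0 under that limit, where 2.33% of all genes lay.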

How the data were processed

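Each of 40 samples labelled as fetal liver gave 1 directional library of polyadenylated RNA, read from both ends at 43 nt, per the labels' protocols. The submitters' processing notes name Trimmomatic 0.39, STAR 2.7.3a, Salmon 1.3.0, DESeq2 1.24 and mm10; the sources used here do not give their roles or the strand setting. The authors deposited normalized counts, a signal per gene and library and not raw counts. Size factors recomputed from them were 1.01 in every library, so no further scaling was applied. Per the file headers, 4 deposited tables of folic acid comparisons add each gene's mean signal, log2 fold change and p-value, unadjusted and adjusted. The table's gene IDs were looked up in GENCODE M21, and 20572 of 20593 were found. A CDF female column without its sex letter was taken for the title that no other column matched. The highest correlation between libraries was 0.982, and none was treated as a copy.

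Values were used as log2(value + 1), a scale that understates changes of low genes. Testing required 10 or more normalized reads in 5 or more libraries. The 15377 genes kept were fitted with limma 3.58.1 in R 4.3.3 (mean-variance trend, robust moderation, 8 group means, 38 libraries) with Benjamini-Hochberg adjustment over all of them. Scores are mean log2 levels of those listed marker genes whose mean log2(value + 1) over the libraries used exceeded that of a value of 10. A score over fewer libraries can therefore rest on other markers. Correlations had two-sided permutation tests with 100000 resamples. In data simulated for WDF against WD males over 15377 genes, the fit found 32.8% of the 67 genes given a 1.5-fold change. It found 67.2% of the 67 given a 2-fold change and 98.5% of the 66 given a 4-fold change. Of its 141 calls 9 were false. The changed genes were not drawn from those of lowest level, and errors were independent with no outlying libraries, so recovery in the real data may differ.

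The genes, lists, clusters and pairs were chosen with earlier results of these data known. Imprinted genes are named with a test where the adjusted p was under 0.05 or the unadjusted p under 0.01, by level where highest in their cluster, and by name where not listed or not tested. Igf2, H19 and Igf2r are given by level, and others are said to be named after their values were seen. Alternatives were 40 or 36 libraries, other scalings, filters and pseudocounts, library weights, erythroid and mesenchymal covariates, fits of 1 sex, a replicate block and each library left out. The Malat1 and Neat1 covariate and the set of 35 libraries were added after seeing the data.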

Additional observations from a re-analysis of the deposited data

Results flagged for a closer look

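The values of single libraries were set against the others of their group. In 296 sets of 4 or 5 libraries, 36 times (12.2%) the highest or lowest value stood apart by Dixon's 95% criterion. For normally distributed values chance gives about 1 in 20. That rate need not hold here, as the criterion was applied to normalized reads and not to log2 levels, with low genes such as Ascl2 and Nap1l5 included. Other genes were not put through the criterion, so 12.2% is not shown to be particular to imprinted genes. CD male replicate 4 gave 10 of the 36 and CDF female replicate 4 gave 5, so the 36 are not independent of each other. Values are normalized reads. CD male replicate 4 stood apart for Slc22a18 at 555 (238 to 300.3 in the others), Slc22a3 at 216 (33.3 to 61.2 in the others) and Tssc4 at 1086 (292 to 478 in the others). The same library stood apart for Meg3 at 8807 (974 to 2953 in the others), Mirg at 189 (51.6 to 86.9 in the others) and Ppp1r9a at 374 (171 to 222 in the others). The same library stood apart for Ube3a at 4147 (884 to 1590.2 in the others), Nnat at 544 (113 to 216 in the others) and Zrsr1 at 189 (227 to 239 in the others). The same library stood apart for Commd1 at 1059.9 (575 to 671 in the others). CDF female replicate 4 stood apart for Slc22a3 at 175 (57 to 74.7 in the others), Tssc4 at 1231 (332 to 472 in the others) and Grb10 at 8845 (16664 to 18125 in the others). The same library stood apart for Nnat at 551 (99.1 to 167 in the others) and Mcts2 at 141 (60.3 to 66.9 in the others). WDF female replicate 2 stood apart for Peg10 at 761 (298 to 427 in the others), Mest at 3641 (2876 to 3092 in the others) and Zrsr1 at 368 (225 to 258 in the others). WD female replicate 5 stood apart for Meg3 at 9089.5 (1498 to 3675 in the others), Rian at 5401 (2891 to 3236 in the others) and Mirg at 227 (45.7 to 93.4 in the others). WDF female replicate 1 stood apart for Snrpn at 155 (47.6 to 75.2 in the others) and Nap1l5 at 68.7 (0 to 3.18 in the others). Its heart markers summed to 2169.5 (42.8 to 77.9 in the others) and its skeletal muscle markers to 1076 (93.7 to 196 in the others), and their part in these values was not tested. WDF male replicate 5 stood apart for Peg3 at 5435 (2473 to 3321 in the others) and Zrsr1 at 429.6 (209.7 to 263 in the others). WDF male replicate 2 stood apart for Ascl2 at 11.2 (0.978 to 3.21 in the others). Its lung markers summed to 8557 (167 to 373 in the others), and their part in this value was not tested. WD male replicate 1 stood apart for Asb4 at 92.1 (55.9 to 65.9 in the others). WDF male replicate 1 stood apart for Inpp5f at 285 (199.8 to 212 in the others). WDF female replicate 3 stood apart for Slc22a18 at 432 (172 to 229 in the others). CD male replicate 5 stood apart for Ndn at 197 (102 to 122 in the others). CDF male replicate 1 stood apart for Commd1 at 961 (538 to 625 in the others). CDF male replicate 2 stood apart for Gnas at 7386 (5686 to 6051 in the others). WD female replicate 4 stood apart for Usp29 at 35.1 (53.4 to 59.7 in the others). CD female replicate 1 stood apart for Phlda2 at 83.3 (108 to 111 in the others). CD female replicate 2 stood apart for Mirg at 42.8 (80.8 to 83.7 in the others). CD female replicate 5 stood apart for Nnat at 487 (126 to 153 in the others).

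The 2 libraries left out of the comparisons, CDF female replicate 5 and CD female replicate 4, lay above all 38 others for 9 imprinted genes, and their lung and albumin genes are given in the report. Airn was at 161 in CDF female replicate 5 and 147 in CD female replicate 4, beside 6.69 to 51.1 in the 38 libraries. Cd81 was at 3337 in CDF female replicate 5 and 3667 in CD female replicate 4, beside 1441 to 2369.9 in the 38 libraries. Ppp1r9a was at 590.2 in CDF female replicate 5 and 654 in CD female replicate 4, beside 114 to 374 in the 38 libraries. Mest was at 9272 in CDF female replicate 5 and 10612 in CD female replicate 4, beside 1931 to 3836 in the 38 libraries. Plagl1 was at 3814 in CDF female replicate 5 and 3496 in CD female replicate 4, beside 243 to 2078 in the 38 libraries. Ndn was at 627 in CDF female replicate 5 and 579 in CD female replicate 4, beside 72.8 to 262 in the 38 libraries. Gnas was at 13131 in CDF female replicate 5 and 17111 in CD female replicate 4, beside 4648 to 8023 in the 38 libraries. Nnat was at 1514 in CDF female replicate 5 and 1774 in CD female replicate 4, beside 50.6 to 551 in the 38 libraries. Trappc9 was at 294 in CDF female replicate 5 and 373 in CD female replicate 4, beside 112 to 282 in the 38 libraries. Phlda2, Slc22a18, Grb10, Commd1 and Inpp5f lay below all 38 in both libraries. The share of all genes lying outside the 38 in both libraries was not computed. These counts therefore do not show a trait particular to imprinted genes. With 2 libraries of this kind and neither labelled as another tissue, no test was run.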

How the results depend on the processing

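Of 514 counts of imprinted genes or pairs past the threshold recomputed over 16 results, 513 kept their main value or stayed within 1.5 times of it. The exception was WDF against WD males with library weights, where 1 gene passed, Ddc, with a log2 difference of 0.54 and an adjusted p of 0.0353 in limma. Over all alternatives the adjusted p of Ddc there ran from 0.0353 to 1. Leaving out each library in turn left every diet and sex count at 0, and no alternative of scaling, filter, pseudocount or covariate gave another count for the imprinted genes. Without single libraries the log2 difference of Slc22a3 in WDF against WD males ran from 1.27 to 1.68, that of Ddc from 0.41 to 0.63 and that of Kcnq1ot1 from 0.868 to 1.195. Of 236 values of named genes and pairs, 3 turned sign: Kcnq1ot1 in WDF against WD males, at -0.0715 with the Malat1 and Neat1 covariate, and Peg10 with Sgce, at -0.146 without the 2 farthest libraries and -0.0903 with 35 libraries. Another 8 gained a call and 1 lost it: Ddc as above, Cdkn1c with Phlda2, Kcnq1ot1 and Slc22a18 with 40 libraries, 3 Cdkn1c calls and Zrsr1 with Commd1 with group means or the nuclear score out, and Plagl1 with Cdkn1c lost without the 2 farthest. With the Malat1 and Neat1 covariate, the WDF against WD difference in males was 0.70 for Slc22a3 and 0.27 for Ddc, and the Slc22a3 difference between effects in males was 1.03. The last was 1.08 with library weights. Nnat under the western diet was -0.82 with 40 libraries, -0.26 with 36 and -0.21 with library weights, and in CDF against CD males -0.71 with library weights. Between 5 and 9 of the 11 pairs passed, 6 in the report, and 9 with all 40 libraries. No share over pairs of other genes was computed beside these counts.

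The labels give same-numbered libraries no stated link beyond the number. Over 36 same-numbered pairs of 1 sex and different diets, deviations from the group means were correlated. The correlation ran from -0.543 to 0.274, with 12 over 0.1. A male and a female of the same diet and number were not compared, so a shared litter or batch was not checked. With the replicate block, the Slc22a3 difference in WDF against WD males was 1.47 (limma adjusted p 0.404), and no count of imprinted genes changed. Over all genes, the western diet gave 7 calls with 38 libraries, 3 with 40 and 11 with 36. Low genes such as Rtl1 and Airn rest on few reads, and no raw counts were at hand for a counting interval.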
